A study of Homo sapiens with 9 samples.

Results

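The nuclear-encoded mRNAs of the respiratory chain were taken as the GENCODE protein coding genes whose symbol starts with NDUFA, NDUFB, NDUFC, NDUFS, NDUFV, SDH, UQCR, COX4, COX5, COX6, COX7, COX8 or ATP5, and every peak that overlaps one of them on its strand was used. This gave 102 of 20046 protein coding genes. Of these, 95 held a peak in at least 1 of 54 antibody-barcode eCLIP (ABC) libraries. The other 7 held none, and these were COX4I2, COX6A2, COX7A1, COX7B2, COX8C, NDUFA4L2 and ATP5MGL, most of which are known as tissue-specific forms of subunits or related genes. The 102 genes comprised 7 core subunits, 30 accessory subunits and 8 assembly factors of complex I, 4 subunits and 4 assembly factors of complex II, 9 genes of complex III, 18 of complex IV, 19 of complex V and 3 others, among them 2 readthrough genes that share their reads with ATP5MF and NDUFC2.

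The respiratory chain sits in the inner mitochondrial membrane. Complexes I and II pass electrons from NADH and succinate to ubiquinone, complexes III and IV pass them on to oxygen, and complex V, the ATP synthase, uses the proton gradient that complexes I, III and IV build. All subunits listed here are translated from nuclear mRNAs in the cytoplasm, and their proteins are then imported, so that each mRNA passes through splicing, export and cytoplasmic translation and can meet RNA-binding proteins (RBPs) at each step.

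ABC uses antibodies with a DNA barcode, which is joined to the RNA that the RBP holds, so that several RBPs can be read from 1 tube. The 10plex libraries came from tubes with 10 barcoded antibodies, 3 tubes of K562 cells, an erythroleukemia line, and 2 tubes of a human embryonic kidney line, HEK293T in the sample titles and HEK293XT in the study's methods (HEK293 here). The labels of these 2 tubes conflict, as their cell line field reads K562 and both titles say rep1. The titles were followed, and the K562 markers given below were at or near 0 in both tubes. For K562 replicate 3, the source name and cell line field read K563. The singleplex libraries came from tubes with 1 antibody, against RBFOX2 for HEK293 cells or SLBP for K562 cells (2 replicates of each). No cells were treated and no gene was altered. The 10 RBPs were DDX3 and EIF3G, a helicase and a subunit of eIF3 that act in translation initiation; LIN28B, which binds let-7 precursors and mRNAs; FAM120A, IGF2BP2 and PUM2, cytoplasmic mRNA-binding proteins; PRPF8 and SF3B4, spliceosomal proteins of the U5 and U2 particles; RBFOX2, a splicing regulator that binds GCAUG; and ZC3H11A, which acts in mRNA export.

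The reads in the merged peaks of a 10plex library summed to between 13666 and 3379198, with PUM2 the lowest in every tube. Of the K562 markers looked at, GATA1 had between 80.4 and 123 reads per 1000000 (RPM) of the tube in K562 cells, and HBG2 between 951 and 1407, against at most 2.01 RPM for any of the 7 markers in HEK293 cells. The neuronal genes that HEK293 cells are known for were less uniform, with 44.8 and 57.6 RPM of NEFL and 29.5 and 35.6 RPM of INA in HEK293 cells and 0 in K562 cells, but SOX11 was at 0 in all 5 tubes. PAX2 did not separate the lines, with 4.02 and 3.00 RPM in HEK293 cells and 1.07, 0.618 and 4.50 RPM in K562 cells, and MAP2 ran the other way, with 0 and 0.273 RPM in HEK293 cells and 2.85, 1.44 and 2.57 RPM in K562 cells. Nothing in the labels says that the tubes of a line came from separate cultures, so that the spread between tubes may be technical. The p-values for summed reads below measure that spread. For the comparisons of an RBP with the others, the level of each tube was taken out. Their p-values measure how an RBP's level relative to its tube varied between tubes, pooled over the 10 RBPs. The median respiratory chain gene had 117 reads per K562 tube and 263 per HEK293 tube, against 39.3 and 174.5 for all 14477 protein coding genes with a peak, although its mRNA was shorter, with a median of 894 nt against 3326 nt. Several of these genes are known to have processed pseudogenes, and as only uniquely mapped reads were kept, the levels of such genes are uncertain.

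The sites on which the results below turn are shown first, as 30 nt of the GRCh38 reference on the strand of the gene. For DDX3, the capitals mark the start codon of 6 mRNAs whose first coding bases lay in or next to a peak found in all 5 tubes.
NDUFB7, exon 1, minus strand, chr19:14571983-14572012: gcgactgcagccATGggggcccacctggtc
UQCR11, exon 1, minus strand, chr19:1605392-1605421: gactccgccgcgATGgtgacccggttcctg
NDUFB2, exon 1, plus strand, chr7:140696733-140696762: acgggagcgagtATGtccgctctgactcgg
UQCRQ, exon 2, plus strand, chr5:132866870-132866899: gccgccgccacaATGggccgcgagtttggg
ATP5PO, exon 1, minus strand, chr21:33915746-33915775: gcccgggagaagATGgctgccccagcagtg
ATP5F1B, exon 1, minus strand, chr12:56645946-56645975: ccggactacgccATGttggggtttgtgggt

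For LIN28B, coding sites from among those with the most reads or the highest fold are shown, with GGAG, a motif known for LIN28 proteins, in capitals. NDUFS1, the site of highest fold, held no GGAG in its peaks, and the middle of the stretch that its peaks share is given.
UQCRH, exon 3, plus strand, chr1:46310201-46310230: gtgtaaaggcccgGGAGcggctagagctct
UQCRH, exon 3, plus strand, chr1:46310264-46310293: aagaggattgcacGGAGGAGctctttgact
NDUFV1, exon 5, plus strand, chr11:67610478-67610507: cctacatctgtGGAGaGGAGacagcgctca
NDUFS1, exon 17, minus strand, chr2:206126787-206126816: ctctggatcaagtaaggaacagattggaag

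For the splicing proteins, the capitals mark GCATG, the DNA form of the RBFOX2 motif, in or next to RBFOX2 peaks, the first 2 bases of the intron in a PRPF8 peak and the last 2 in an SF3B4 peak. For ATP5F1C the second GCATG was in called peaks of 4 RBFOX2 libraries, and the first was in those of fewer than 2.
NDUFA10, RBFOX2, intron 8, minus strand, chr2:240005157-240005186: gctGCATGtctggggtctacttGCATGatg
NDUFB1, RBFOX2, intron 1, minus strand, chr14:92121538-92121567: cctcggtgctgtGCATGtgtggaggggtgg
ATP5F1C, RBFOX2, intron 8, plus strand, chr10:7806733-7806762: cctacttGCATGaGCATGtttttattgctt
NDUFA5, PRPF8, intron 3, minus strand, chr7:123550452-123550481: atggttaaagcgGTaagtagctaagtcagt
COX7B, SF3B4, intron 2, plus strand, chrX:77905157-77905186: taactgacagcattttaattcttacAGgta

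DDX3 and LIN28B called the most respiratory chain mRNAs in K562 cells. A peak was called with the study's limits, P below 0.001 and a fold above 8 over the complement control (CC), which is the reads of the other 9 barcodes of the tube at the same place, and a gene was called for an RBP where it held such a peak in every replicate. The P compares the reads of 1 library with those of its tube and holds no spread between replicates. In K562 cells, 76 gene and RBP pairs from 51 genes were called, and 6.70% of all pairs of an RBP and a protein coding gene with a peak. In HEK293 cells 76 pairs from 56 genes were called, against a background of 12.5%. Of these, 43 pairs were called in both lines, 56.6% of each list. Overlaps between the lines, here and below, were counted for the respiratory chain genes only. Without the share over all genes they show nothing particular to the set. The HEK293 count rests on agreement of the replicates, as 165 pairs were called in replicate 1 and 121 in replicate 2.

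DDX3 called 20 of the 95 respiratory chain genes in K562 cells (21.1%), against 3.66% of all genes, and 16 in HEK293 cells (16.8%), against 10.8%. LIN28B called 18 in K562 cells (18.9%; all genes 10.4%) and 17 in HEK293 cells (17.9%; all genes 14.3%). This depended on the background. The authors' external background held at most 1 read at 94.1%, 94.9% and 95.4% of the DDX3 peaks in K562 cells. In HEK293 cells it did so at 6.69% and 7.22%, so that the lines cannot be compared by it. In K562 replicate 1, 98.3% of the respiratory chain DDX3 peaks passed over it, and 98.8% over all genes. A pass in that replicate says little more than that a gene held a peak. In K562 replicates 2 and 3, 72.5% and 81.0% of the respiratory chain DDX3 peaks passed, and 62.7% and 65.9% over all genes. When the authors' external background took the place of the CC, DDX3 called 50 in K562 cells (52.6%; all genes 15.7%) but 10 in HEK293 cells (10.5%; all genes 28.3%), and LIN28B 30 (31.6%; 12.3%) and 13 (13.7%; 20.7%).

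The splicing proteins and FAM120A called no larger share of these genes than of all genes. PRPF8 called 16 in K562 cells (16.8%; 21.4%) and 17 in HEK293 cells (17.9%; 35.4%). FAM120A called 5 (5.26%; 11.4%) and 10 (10.5%; 23.3%), and SF3B4 8 in each line (8.42%; 9.47% and 16.6%). RBFOX2 called 3 (all genes 4.40%) and 4 (12.7%). The others called few genes of the set, IGF2BP2 5 (4.34%) and 2 (5.49%). ZC3H11A called 1 gene in K562 cells (0.711%) and none in HEK293 cells (2.84%), EIF3G none in K562 cells (1.06%) and 2 in HEK293 cells (3.21%), and PUM2 none in either (0.166% and 0.449%).

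**Figure D1:**
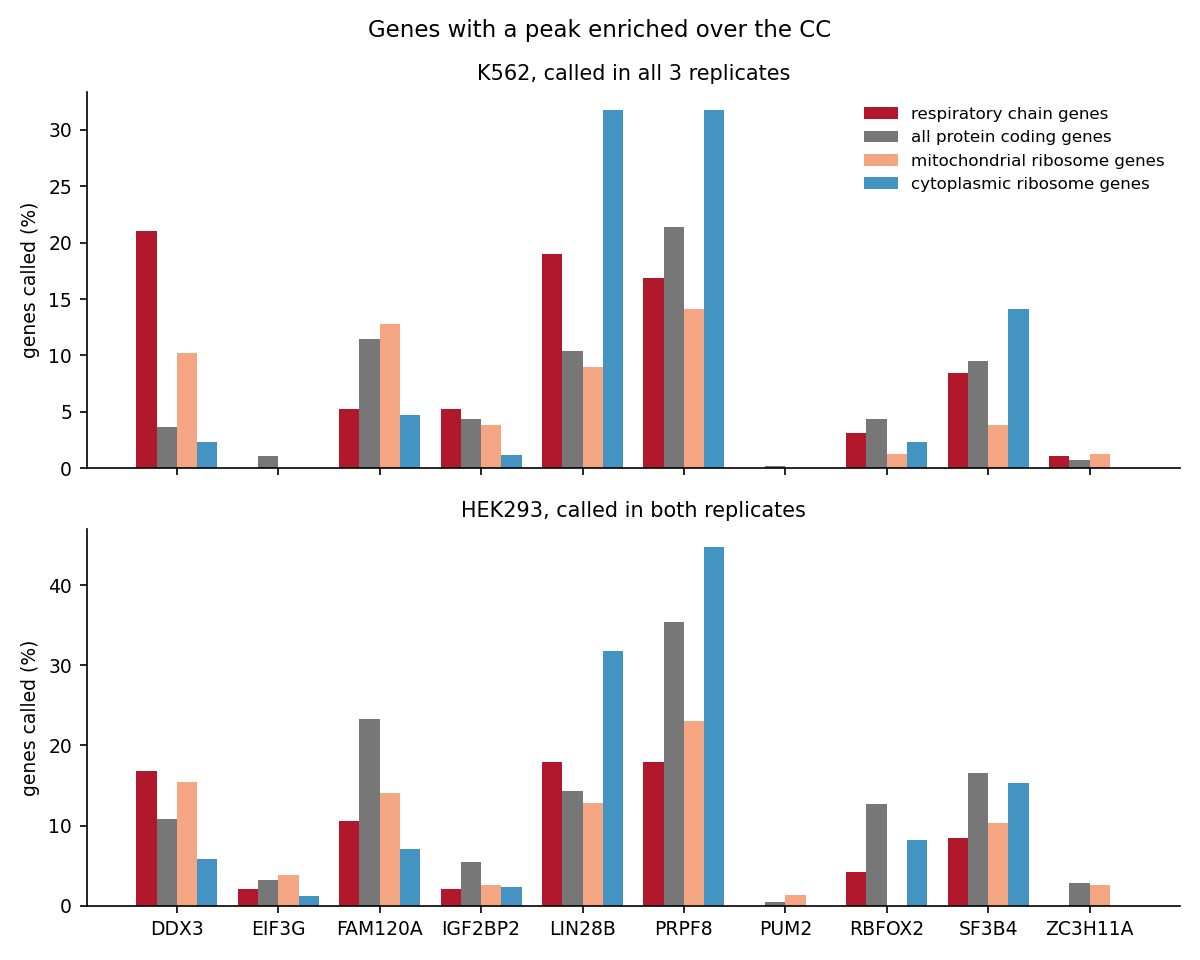
Percentage of genes with a peak called over the CC in every replicate, by RBP, in K562 cells (top) and HEK293 cells (bottom). Bars stand for the respiratory chain genes, all protein coding genes with a 10plex peak, and the genes of the mitochondrial and cytoplasmic ribosome. The DDX3 bar of the respiratory chain reaches 21.1% in K562 cells against 3.66% for all genes.

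The same calls were counted on other gene lists. Of the 85 cytoplasmic ribosomal protein genes with a peak, DDX3 called 2 in K562 cells and 5 in HEK293 cells, and LIN28B called 27 in each line (31.8%). Of the 78 mitochondrial ribosomal protein genes, DDX3 called 8 (10.3%) and 12 (15.4%). Of 41 other genes of the respiratory pathway, mainly assembly factors outside the symbols used here, DDX3 called 2 and 3. These lists are given side by side, and the differences between them were not tested.

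For DDX3, sites on respiratory chain mRNAs lay at the start codon. Of the called peaks in exons, 82.2%, 81.0% and 87.0% were within 100 nt of the start codon in the 3 K562 replicates and 70.9% and 87.5% in HEK293 cells. Over all protein coding genes these shares were 45.3%, 48.5% and 55.0%, and 39.5% and 39.1%, so that the respiratory chain share was higher in each of the 5 libraries. A peak was given to coding sequence (CDS) where any of its bases was coding, and to a UTR only otherwise. A peak across the start codon thus counts as CDS, however much of it lies in the 5′ UTR. By this rule, 83.3%, 78.8% and 86.0% of the respiratory chain peaks in K562 cells and 82.6% and 79.1% in HEK293 cells were in CDS, with between 42.8% and 50.9% over all genes. In the 5′ UTR there were between 11.6% and 18.2%, against between 39.9% and 47.5%. The mRNAs are shorter and hold more reads than the median gene, as given above, and the part of either in this difference was not tested.

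**Figure D2:**
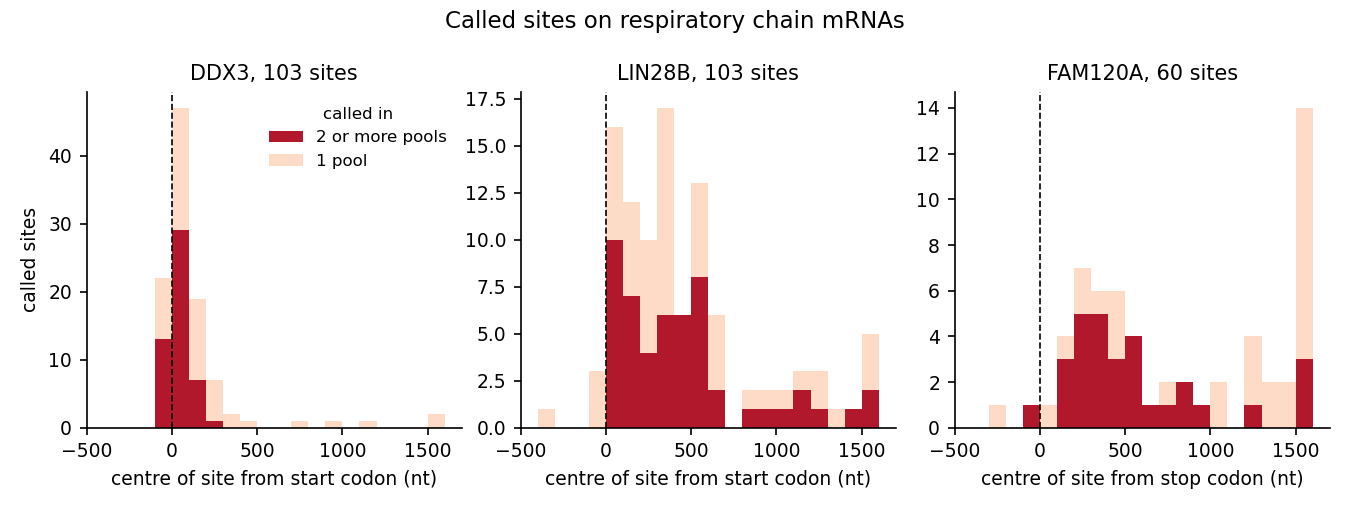
Centre of each called site on the respiratory chain mRNAs, in nt along the mRNA, from the start codon for DDX3 (103 sites) and LIN28B (103) and from the stop codon for FAM120A (60). Bars are stacked by whether the site was called in 1 or in at least 2 of the 5 tubes, and the last bar holds all sites farther along. DDX3 sites gather next to the start codon, while LIN28B sites spread over the CDS and FAM120A sites lie past the stop codon.

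Of 114 DDX3 sites, 22 were called in all K562 replicates, 17 in both of HEK293 and 11 in all 5 libraries. These 11 lay in 10 genes, NDUFB2, NDUFB7, NDUFB10 and NDUFS3 of complex I, UQCR11, UQCRC1 and UQCRQ (2 sites) of complex III, COX4I1 of complex IV, and ATP5F1B and ATP5PO of complex V. None was in a gene of complex II, for which DDX3 called none of the 4 subunits in either line. By complex, DDX3 called 4 of 7 core subunits of complex I in K562 cells and 1 in HEK293 cells, 3 of 9 complex III genes in each line, and 5 and 4 of 18 complex V genes with a peak. It called 1 of 13 complex IV genes with a peak in K562 cells.

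NDUFB7 (ENSG00000099795, chr19:14566078-14572066, minus strand) encodes an accessory subunit of complex I. Its DDX3 peak at chr19:14571928-14572006, over the start codon printed above, held 28, 23 and 33 reads in the K562 replicates and 31 and 42 in the HEK293 replicates. The mean log2 fold over the CC was 4.62 ± 0.45 (SD, n = 3) and 4.10 ± 0.53 (n = 2). Over the whole gene, DDX3 had 224, 136 and 158 RPM (here reads per 1000000 of the library, from its peaks in the gene) in K562 cells and 104 and 66.7 RPM in HEK293 cells. The K562 values lay above the HEK293 values, and in every tube DDX3 was above the highest of the other 9 RBPs, which had 60.3, 29.5 and 73.2 RPM in K562 cells and 69.6 and 46.1 RPM in HEK293 cells.

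The clearest DDX3 mRNAs also included 2 small subunits of complex III. UQCR11 had 295, 225 and 369 RPM of DDX3 in K562 cells and 212 and 167 in HEK293 cells, and its peak at the start codon had a log2 fold over the CC of 3.92 ± 0.30 (SD, n = 3) and 3.72 ± 0.27 (n = 2). UQCRQ had 271, 362 and 455 RPM, and 318 and 165 RPM. ATP5PO, the stalk subunit of the ATP synthase also known as OSCP, had 192, 273 and 508 RPM and 293 and 156 RPM, with a log2 fold of 3.33 ± 0.12 and 3.43 ± 0.09 at chr21:33915719-33915795. The K562 and HEK293 values overlapped for UQCRQ and ATP5PO and not for UQCR11, which was higher in K562 cells. ATP5F1B, the catalytic beta subunit, had many more DDX3 reads in K562 cells (1373, 1873 and 1476 RPM) than in HEK293 cells (458 and 227 RPM), and these groups did not overlap. UQCRC1, a core subunit of complex III, had the highest mean fold of DDX3 in K562 cells (log2 5.06 ± 1.14), but its best peaks held only 3, 9 and 31 reads.

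LIN28B sites lay mostly in the CDS, by the same rule that any coding base makes a peak CDS. Of the called LIN28B peaks, 83.0%, 87.8% and 77.5% were in CDS on respiratory chain mRNAs in K562 cells and 82.8% and 88.6% in HEK293 cells, above the 68.7%, 69.6% and 62.4% and the 65.4% and 61.9% over all genes. Between 8.1% and 12.5% were in the 3′ UTR, against between 16% and 24.9%. GGAG, looked for on the strand of the peak and chosen after the values were seen, was in 37.7%, 32.4% and 42.5% of the respiratory chain peaks in K562 cells and 39.1% and 37.1% in HEK293 cells. It was in between 34.3% and 39.3% of the LIN28B peaks of all genes, so that the respiratory chain peaks held it about as often. Of 113 LIN28B sites, 13 were called in all 5 libraries, among them 1 that NDUFC2 and its readthrough gene share.

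UQCRH (ENSG00000173660, chr1:46303698-46316776, plus strand), the hinge protein of complex III, had the most LIN28B reads at any of these sites. Its peak in exon 3 at chr1:46310198-46310316 held 169, 238 and 195 reads in K562 cells and 58 and 76 in HEK293 cells, with a log2 fold over the CC of 6.64 ± 0.37 (SD, n = 3) and 5.71 ± 0.13 (n = 2). Over the gene, LIN28B had 1272, 3765 and 2174 RPM in K562 cells and 410 and 469 RPM in HEK293 cells, while the highest other RBP of each tube had 185, 190 and 455 RPM and 56.6 and 98.7 RPM. The LIN28B values of the lines did not overlap, and neither overlapped those of any other RBP of the same line. UQCRHL, a retrocopy of UQCRH, had 22 reads over all libraries.

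LIN28B called 4 of the 7 core subunits of complex I in each line, and 4 of the 30 accessory subunits in K562 cells. NDUFS1, the largest core subunit, had the highest fold over the CC of any gene called in every replicate, 7.89 ± 0.65 on the log2 scale in K562 cells and 6.73 ± 0.56 in HEK293 cells, at chr2:206126774-206126845 in exon 17. The peak held 33, 25 and 39 reads, and 22 and 30 reads. NDUFV1, which binds NADH, had 790, 819 and 922 RPM of LIN28B in K562 cells and 322 and 266 RPM in HEK293 cells, and its site had a log2 fold of 5.73 ± 0.37 and 4.10 ± 0.14. Sites in NDUFS6 and NDUFS8 were also called in all 5 libraries, that of NDUFS6 in the 3′ UTR.

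In complex II, calls in every replicate were for LIN28B, FAM120A and PRPF8. SDHA and SDHB, the catalytic subunits that face the matrix, were called for LIN28B in every replicate of both lines, and SDHC and SDHD, the membrane anchors, were called for FAM120A in every replicate of both lines. SDHD (ENSG00000204370, chr11:112086824-112120016, plus strand) had 245, 263 and 269 RPM of FAM120A in K562 cells and 84.7 and 135 RPM in HEK293 cells. The highest other RBP had 21.5, 33.5 and 24.3 RPM and 10.2 and 12.9 RPM, so that FAM120A did not overlap any of them, and EIF3G, PUM2 and ZC3H11A had no read in any tube. Its site at chr11:112095383-112095665, in the 3′ UTR and centred 449 nt past the stop codon, held 114, 83 and 36 reads and 33 and 116 reads, with a log2 fold of 5.88 ± 0.24 and 5.26 ± 0.31. A readthrough gene overlaps SDHD on the same strand, so that the site counts for both and the call is lost where only peaks in a single gene are kept.

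SDHC had 116, 120 and 90.4 RPM of FAM120A in K562 cells and 56.7 and 56.8 RPM in HEK293 cells, and no other RBP exceeded 38 RPM in any tube. Its site at chr1:161362782-161362881, centred 396 nt past the stop codon, had a log2 fold of 4.14 ± 0.36 and 4.08 ± 0.03. SDHA had 234, 186 and 128 RPM of LIN28B and 159 and 196 RPM, above every other RBP of the same tube. SDHA was also called for PRPF8 in every replicate of both lines, with a log2 fold of 3.87 ± 0.59 from 13, 12 and 20 reads in K562 cells. In HEK293 cells it was 4.13 ± 0.01 from 3 and 3 reads. This is the value that 3 reads give where the CC holds at most 1 read, so that its small SD does not measure agreement of the tubes. SDHB had 60.3, 59.1 and 108 RPM of LIN28B in K562 cells, where DDX3 had 0, 83 and 125 RPM, and 35.2 and 14.8 RPM in HEK293 cells, where PRPF8 had 37.8 and 42.3 RPM. LIN28B was therefore not above the others over the whole SDHB gene, although its peak at the start of the CDS had a log2 fold of 4.41 ± 0.26 and 4.33 ± 0.46. In HEK293 cells this call rested on few reads, in replicate 2 at or near the 3 that a merged peak holds at least.

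FAM120A sites on respiratory chain mRNAs were in the 3′ UTR as over all genes, with 93.8%, 96.4% and 100% of the called peaks in K562 cells and 95.9% and 100% in HEK293 cells, against between 95.2% and 96.2%. Only 3 of its 63 sites were called in all 5 libraries, those in SDHD, SDHC and NDUFA6, an accessory subunit of complex I. NDUFS1 was called for FAM120A as well as for LIN28B, with 187, 167 and 158 RPM of FAM120A in K562 cells and 215 and 276 RPM in HEK293 cells, and this call was lost in K562 cells when peaks in repeats were left out. As LIN28B had 221, 106 and 283 RPM and 295 and 122 RPM of the same gene, the levels of the 2 RBPs over NDUFS1 overlapped in both lines.

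PRPF8 and SF3B4 peaks lay mostly at splice sites, and many of them overlapped CDS. Of the called PRPF8 peaks on these genes, 83.0%, 89.8% and 92.3% in K562 cells and 87.7% and 89.4% in HEK293 cells had an edge within 10 nt of a 5′ splice site or spanned it, close to the 84.3%, 82.4% and 89.9% and the 82.8% and 81.1% over all genes. Of the SF3B4 peaks, 95.8%, 93.8% and 79.2% and 76.7% and 75.0% were within 40 nt of a 3′ splice site, against 73.1%, 78.6% and 79.5% and 67.2% and 63.6%. NDUFAF7, an assembly factor of complex I, had the highest fold of PRPF8 in K562 cells (log2 5.10 ± 0.56 from 10, 8 and 6 reads). The PRPF8 site of NDUFA5 printed above held 10, 38 and 58 reads and 27 and 11 reads. For SF3B4, NDUFV2, a core subunit of complex I, had a log2 fold of 5.80 ± 0.98 in K562 cells, and COX7B was the only site called in all 5 libraries, with 14, 26 and 11 reads and 17 and 22 reads.

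RBFOX2 was called on few of these genes, and most of its called peaks lay in introns or at splice sites. The exceptions, in CDS or a UTR, were 1 of 12, 2 of 21 and 2 of 9 peaks in the K562 replicates and 1 of 22 and 0 of 13 in the HEK293 replicates, among them peaks of NDUFB1 in CDS and the 5′ UTR. NDUFA10 (ENSG00000130414, chr2:239892450-240025743, minus strand), an accessory subunit of complex I, had 115, 205 and 127 RPM of RBFOX2 in K562 cells, 317 and 262 RPM in HEK293 cells and 409 and 340 RPM in the singleplex HEK293 libraries. Its site in intron 8 was the only RBFOX2 site called in all 5 tubes, and it holds GCATG at 2 places. NDUFB1 had 44.6, 63.2 and 51.4 RPM in K562 cells, 69.9 and 75.2 RPM in HEK293 cells and 84.1 and 105 RPM in singleplex libraries. ATP5F1C, the gamma subunit of the ATP synthase, had 44.6, 151 and 54.1 RPM, 172 and 163 RPM, and 307 and 299 RPM. For NDUFA10, NDUFB1 and ATP5F1C both HEK293 values lay above all 3 K562 values. GCATG, looked for on the strand of the peak, was in 33.3%, 42.9% and 44.4% of the called RBFOX2 peaks on respiratory chain genes in K562 cells and 54.5% and 53.8% in HEK293 cells, where it was in between 32.3% and 48.5% of the RBFOX2 peaks of all genes. These shares rest on between 9 and 22 peaks each.

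EIF3G, which acts in initiation as DDX3 does, shared some of its mRNAs on the whole-gene level. COX6C, a small subunit of complex IV, had 92.3, 64.6 and 65 RPM of EIF3G in K562 cells and 104 and 65.8 RPM in HEK293 cells, next to 104, 296 and 110 RPM and 140 and 49.2 RPM of DDX3, so that DDX3 lay above EIF3G in K562 cells and the 2 RBPs overlapped in HEK293 cells. In each K562 tube the EIF3G value stands for 1 peak of 3 reads, the fewest that a merged peak holds. Its closeness between these tubes is thus no measure of agreement. Of the 9 genes that passed for EIF3G in K562 cells by the comparison below, 6 had an EIF3G peak in every replicate. Compared with the mean of the other 9 RBPs of the tube by limma, as described below, EIF3G was above by 2.67 ± 0.72 and 2.63 ± 0.54 on the log2 scale and passed in both lines, and DDX3 by 3.50 ± 0.59 and 2.58 ± 0.39. ATP5MC3, which encodes the c subunit of the ATP synthase ring, passed for EIF3G (2.09 ± 0.40 and 2.26 ± 0.39) and DDX3 (1.79 ± 0.31 and 1.6 ± 0.31) in both lines. ATP5F1E, the epsilon subunit, was called for DDX3 over the CC in K562 cells, with 22, 27 and 46 reads and a log2 fold of 4.51 ± 0.52. COX7C of complex IV passed for both RBPs in K562 cells and for neither in HEK293 cells.

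The remaining proteins had few calls. For IGF2BP2, ATP5MK, a small membrane subunit of the ATP synthase, had the highest fold in K562 cells (log2 4.92 ± 0.55 from 4, 28 and 29 reads), and no IGF2BP2 site was called in all 5 libraries. NDUFV2 was the only gene called for ZC3H11A, with 12, 20 and 6 reads and a log2 fold of 3.60 ± 0.38. PUM2 had peaks on between 2 and 7 respiratory chain genes in K562 cells and between 8 and 13 in HEK293 cells, and none of its 8 called peaks on them held TGTANATA, where between 5.85% and 17.1% of its peaks over all genes did. For SLBP, which binds histone mRNAs, 11 and 3 genes of the set held a peak in the singleplex libraries, with 0.109% and 0.150% of the reads in peaks of protein coding genes.

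By the share of an RBP's reads that fell on the set, DDX3 and LIN28B again had the highest means in each line. DDX3 had 1.64% ± 0.283 (SD, n = 3) of its reads in protein coding genes on respiratory chain mRNAs in K562 cells, and 1.13% and 0.873% in HEK293 cells. LIN28B had 1.41% ± 0.225, and 0.804% and 0.679%, and EIF3G had 0.953% ± 0.365, and 0.763% and 0.659%. In K562 cells DDX3 and LIN28B overlapped, as the lowest DDX3 replicate had 1.33% and the highest LIN28B replicate 1.59%. In HEK293 cells LIN28B overlapped EIF3G and ZC3H11A, which had 0.711% and 0.700% on average. The order of the other RBPs was not that of the calls over the CC, as EIF3G came next to LIN28B in K562 cells with no gene called, and PRPF8 had 0.568% in HEK293 cells with 17 genes called. FAM120A was the lowest of the 10 in each line, with 0.308% ± 0.0147 in K562 cells and 0.230% and 0.220% in HEK293 cells. RBFOX2 had 0.591% ± 0.0889 in K562 cells, 0.393% and 0.370% in HEK293 cells and 0.360% and 0.399% in the singleplex libraries, which did not stand apart from 10plex HEK293.

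To take out the RNA level of each gene, the reads of an RBP were compared with the mean of the other 9 RBPs in the same tube (limma-voom with the tube as a block, adjusted p over all genes tested for each RBP). DDX3 was the RBP for which most respiratory chain genes were above the others, by more than 1 on the log2 scale and with an adjusted p below 0.05. This was so for 39 of 79 genes tested in K562 cells (49.4%; all genes 10.8%) and 37 of 89 in HEK293 cells (41.6%; 15.2%), of which 31 were the same genes. The HEK293 count was 4 without replicate 1 and 22 without replicate 2, with the spread taken from both lines. The median difference of DDX3 over the set was 1.48 on the log2 scale in K562 cells and 1.09 in HEK293 cells, against -0.67 and 0.15 over all genes. For LIN28B, 23 genes passed in K562 cells (29.1%; 17.1%) and 17 in HEK293 cells (19.1%; 9.71%), with 12 in both. The HEK293 count was 2 without replicate 1 and 8 without replicate 2. The median differences were 0.78 and 0.18, against -0.40 and -0.45.

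FAM120A lay on the other side, with 8 genes in K562 cells (10.1%; 33.4%) and 8 in HEK293 cells (8.99%; 27.7%), 7 of them in both, and with median differences of -1.70 and -1.35 against 0.05 and -0.05. PRPF8 passed in 29 genes (36.7%; 51.0%) and 16 genes (18%; 39.3%), IGF2BP2 in 18 (22.5% of all genes) and 9 (12.5%), EIF3G in 9 (6.13%) and 7 (4.89%), RBFOX2 in 4 (15.3%) and 9 (33.0%), SF3B4 in 2 (10.5%) and 2 (8.08%), and ZC3H11A in 2 (3.22%) and 4 (3.22%). PUM2 passed in 18 genes in K562 cells (41.6% of all genes), but in 16 of these it had no read in any K562 tube so that the fitted value depends on the library size and says nothing of binding. In HEK293 cells PUM2 passed in 1 gene (7.14%), NDUFAF7, with 3 reads. In all, 152 pairs passed in K562 cells (21.2% of all pairs) and 110 in HEK293 cells (16.1%), with 78 in both. Without K562 replicate 3 the first was 98.

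**Figure D3:**
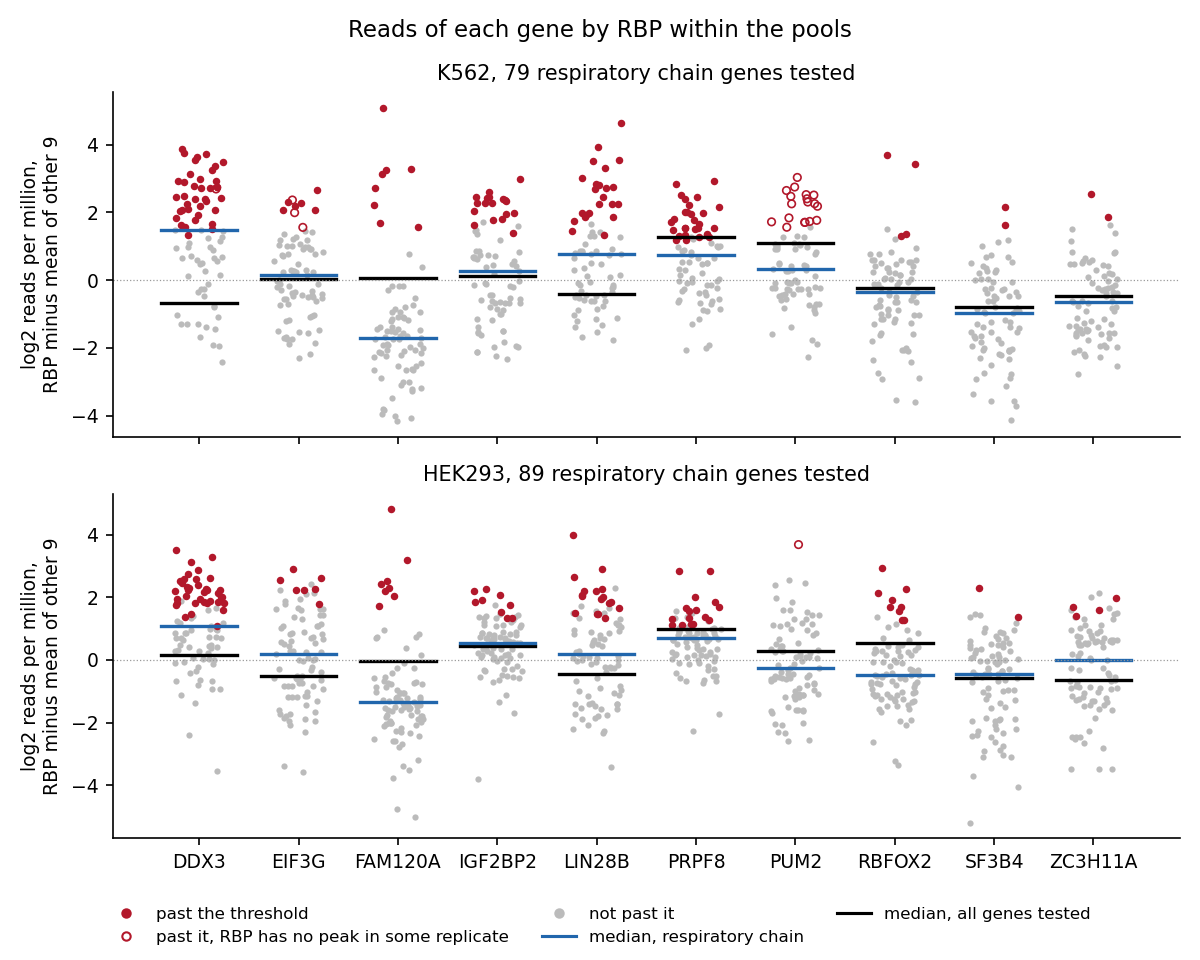
Difference in log2 RPM between each RBP and the mean of the other 9 RBPs of the tube, 1 point per respiratory chain gene, in K562 cells (top) and HEK293 cells (bottom). Red points passed the threshold, open circles had no peak of that RBP in some replicate, and lines are the medians of the respiratory chain genes (blue) and of all genes tested (black). The blue DDX3 line lies at 1.48 in K562 cells with the black one at -0.67, while for FAM120A the blue line lies below the black one.

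By complex, the DDX3 preference passed in 4 of 7 core and 11 of 26 accessory subunits of complex I tested in K562 cells, 3 of 6 complex III genes, 8 of 12 complex IV genes, 10 of 17 complex V genes and none of the 4 subunits of complex II. In HEK293 cells it passed in 4 of 7, 13 of 30, 3 of 7, 5 of 12, 9 of 18 and again none of 4. Of the mitochondrial ribosomal protein genes, 14 of 53 (26.4%) and 18 of 77 (23.4%) passed. For cytoplasmic ribosomal protein genes, 23 of 81 (28.4%) passed in K562 cells and 9 of 84 in HEK293 cells, and for the other genes of the pathway 2 of 26 and 7 of 39. The differences between these lists were not tested either.

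Among the DDX3 mRNAs, NDUFB7 was above the other RBPs by 3.77 ± 0.54 on the log2 scale (SE; limma adjusted p = 2.42e-06) in K562 cells and by 2.63 ± 0.53 (adjusted p = 0.00213) in HEK293 cells. UQCR11 was above them by 3.56 ± 0.59 (limma adjusted p = 2.37e-05) and 3.11 ± 0.57 (adjusted p = 0.00103). NDUFB2, another accessory subunit of complex I, had 120, 184 and 283 RPM and 170 and 92.1 RPM, and was above by 3.86 ± 0.53 and 2.31 ± 0.43. UQCRQ and ATP5PO were above by 3.37 ± 0.51 and 2.79 ± 0.49 in K562 cells and by 2.26 ± 0.37 and 2.88 ± 0.47 in HEK293 cells. ATP5F1B did not pass in either line, with 0.67 ± 0.23 in K562 cells and 0.98 in HEK293 cells, although it had more DDX3 reads than any of these.

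For LIN28B, UQCRH was above the other RBPs by 4.65 ± 0.32 (limma adjusted p = 8.21e-15) in K562 cells and 3.98 ± 0.51 (adjusted p = 4.66e-05) in HEK293 cells. NDUFV1 was above by 3.55 ± 0.35 and 2.02 ± 0.44, SDHA by 3.02 ± 0.55 and 2.07 ± 0.55, and NDUFS1 by 2.82 ± 0.55 and 1.80 ± 0.50, and all passed in both lines. SDHB did not pass for LIN28B, with limma adjusted p of 0.0542 and 0.353.

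For FAM120A, SDHD was above by 5.09 ± 0.37 (limma adjusted p = 7.09e-15) and 4.81 ± 0.50 (adjusted p = 4.14e-07), the highest of any pair in the set in each line. SDHC was above by 3.13 ± 0.45 and 2.05 ± 0.32. NDUFA5, an accessory subunit of complex I, had 300, 318 and 212 RPM of FAM120A in K562 cells and 70.2 and 120 RPM in HEK293 cells, and was above by 3.29 ± 0.38 and 3.20 ± 0.39. For RBFOX2, NDUFA10 was above by 3.43 ± 0.46 (limma adjusted p = 2.66e-07) and 2.93 ± 0.36 (adjusted p = 4.43e-06), and NDUFB1 by 3.68 ± 0.54 and 1.68 ± 0.39. NDUFAF7 was above by 2.84 ± 0.54 and 2.84 ± 0.68 for PRPF8. COX7B passed for SF3B4 in K562 cells (1.64 ± 0.61, limma adjusted p = 0.0272) and not in HEK293 cells (1.18 ± 0.45, adjusted p = 0.0594). For IGF2BP2, COX8A, a small subunit of complex IV, had 137, 218 and 255 RPM and 114 and 91.6 RPM and passed in both lines, with 2.47 and 2.28.

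**Figure D4:**
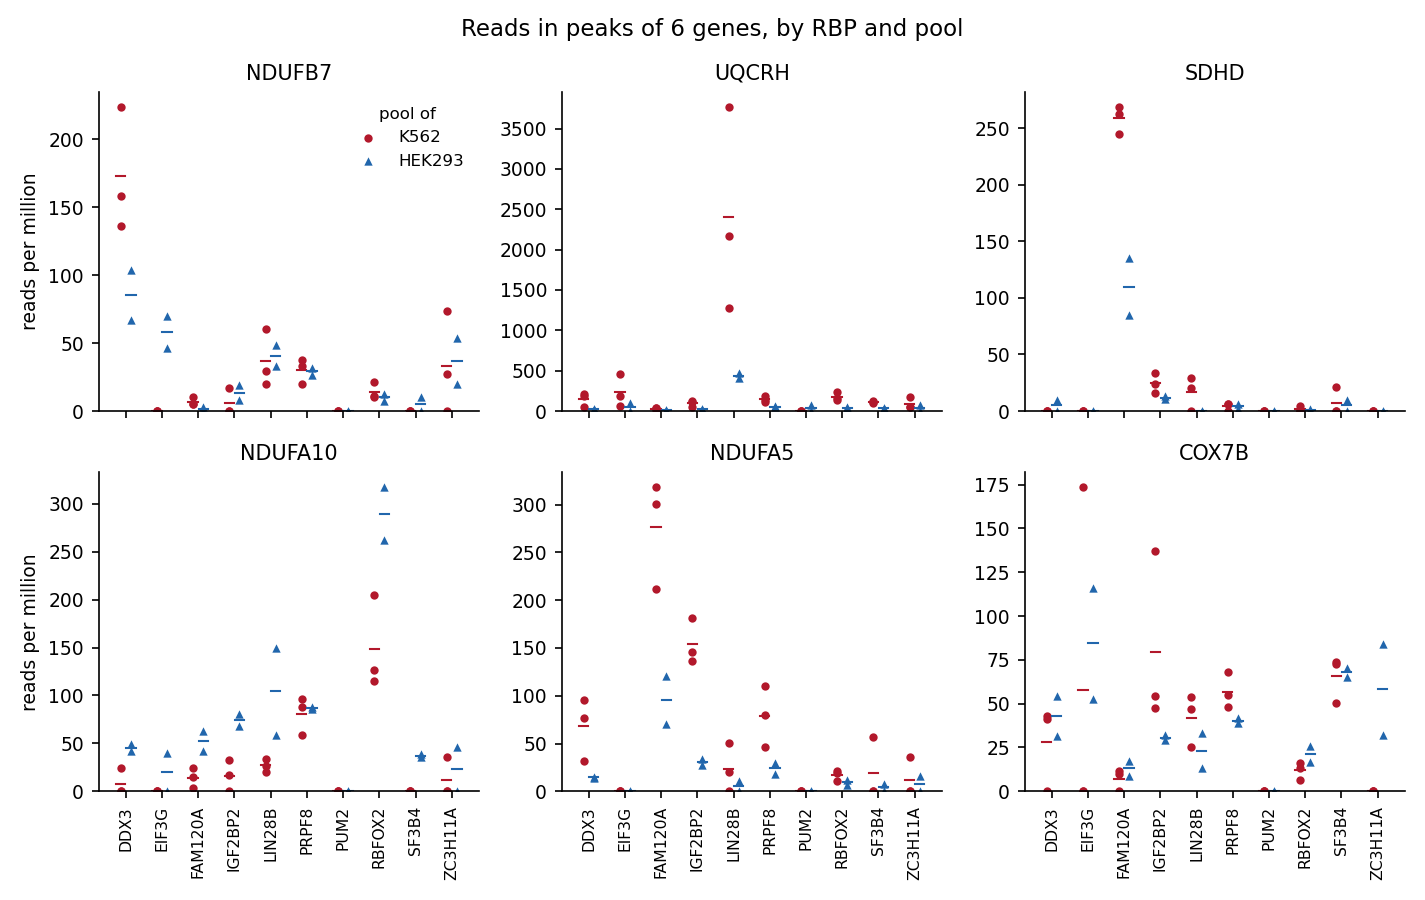
RPM of the library in the peaks of 6 respiratory chain genes, by RBP, with 1 point per tube of K562 cells (circles) and HEK293 cells (triangles) and a line at each mean. DDX3 is highest for NDUFB7, LIN28B for UQCRH, FAM120A for SDHD and NDUFA5, and RBFOX2 for NDUFA10, while for COX7B several RBPs overlap SF3B4.

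Finally, the reads of all 10 libraries of a tube were summed and compared between the lines. In these bulk tubes, fewer bound molecules and less of the mRNA cannot be told apart. Of 93 respiratory chain genes tested, 23 differed between HEK293 and K562 cells (24.7%; 53.9% of all genes), with 12 higher in HEK293 cells (39.0% of all genes) and 11 lower (14.9%). The median difference of the set was -0.16 on the log2 scale against 0.66 over all genes. All 12 that were higher in HEK293 cells encode accessory subunits or assembly factors of complex I, except UQCR10 of complex III, and none was in complex II, IV or V. Of the other lists, 13 cytoplasmic ribosomal protein genes were higher and 21 lower of 85, and 16 mitochondrial ribosomal protein genes were higher and 6 lower of 78.

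NDUFV2, a core subunit of complex I, had the lowest value in HEK293 cells relative to K562 cells. It had 105, 143 and 87.8 RPM of the tube in K562 cells and 10.2 and 12.2 RPM in HEK293 cells, which was lower by a log2 difference of -3.28 ± 0.34 (SE, limma adjusted p = 0.000363). ATP5F1B had 623, 873 and 905 RPM and 219 and 101 RPM, with a difference of -2.39 ± 0.38 (limma adjusted p = 0.00223). UQCRH, the main LIN28B mRNA, had 145, 256 and 235 RPM and 45.9 and 41.6 RPM, with a difference of -2.24 ± 0.30 (limma adjusted p = 0.00117). NDUFB5 and NDUFA5, accessory subunits of complex I, had differences of -2.33 and -1.78. In each of these the lines did not overlap.

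UQCR10, a small subunit of complex III, was the most raised in HEK293 cells. It had 8.55, 2.06 and 4.82 RPM in K562 cells and 31.5 and 25.2 RPM in HEK293 cells, a difference of 2.63 ± 0.53 (limma adjusted p = 0.00619). NDUFAF6 had 10.3, 8.66 and 17 RPM and 54.7 and 56.1 RPM, and NDUFAF3, also an assembly factor of complex I, 3.56, 6.18 and 11.3 RPM and 36.6 and 26.9 RPM, with differences of 2.30 and 2.26. NDUFB8 had 15, 15.9 and 30.9 RPM and 91.1 and 79.3 RPM (2.15 ± 0.34, limma adjusted p = 0.0023). The lines did not overlap in any of these.

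**Figure D5:**
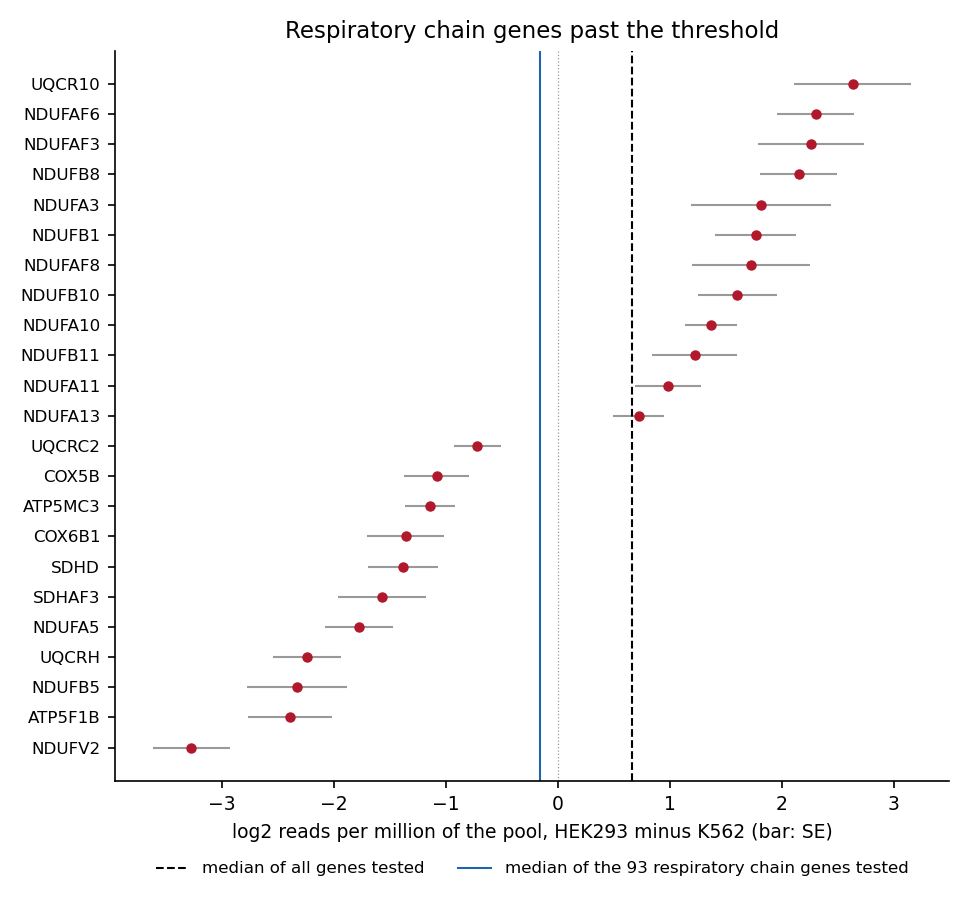
Difference in log2 RPM, HEK293 minus K562, of the reads summed over the 10 libraries of a tube, for the 23 respiratory chain genes that passed the threshold, with bars for the SE (3 K562 and 2 HEK293 tubes). The dashed line is the median of all genes tested (0.66) and the blue line that of the 93 respiratory chain genes (-0.16). The higher genes are of complex I except UQCR10.

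The difference of each RBP from the other 9 was then compared between the lines. Of 91 genes tested for 10 RBPs, 59 pairs differed (limma adjusted p below 0.05; 17.5% of all pairs), 33 of them higher in HEK293 cells, and 15 of the 59 had no read of the RBP in either line. The number depends on the tubes, with 29 pairs without K562 replicate 1 and 31 without K562 replicate 2. DDX3 differed in 1 gene (10.7% of all genes), LIN28B in 3 (6.04%), FAM120A in 8 (18.7%) and RBFOX2 in 7 (31.0%). EIF3G differed in 6 (29.9%), ZC3H11A in 12 (16.8%), SF3B4 in 2 (5.21%), and PRPF8 and IGF2BP2 in 1 each (15.8% and 9.12%). PUM2 had 18 (31.7%), 14 of them with no read in either line. None of the pairs described above, NDUFB7 and DDX3, UQCRH and LIN28B, SDHD and FAM120A, or NDUFA10 and RBFOX2, was among those that differed, which does not show that they were equal. Their differences were -1.11 ± 0.84, -0.62 ± 0.64, -0.28 ± 0.64 and -0.51 ± 0.65 on the log2 scale (SE, limma adjusted p between 0.429 and 0.849), HEK293 minus K562.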

How the data were processed

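Peaks of 54 ABC libraries were used, 50 of them 10plex, and eCLIP data were not used here. The authors trimmed adapters (cutadapt 2.8 per the labels), set repetitive reads aside, aligned to GRCh38 with STAR 2.7.6, collapsed PCR duplicates and ran CLIPper. Each CLIPper peak was deposited with a p-value and a display score. For merged peaks the values deposited by the authors are a log2 fold over an external background and the −log10 of its P, at most 400. Values over the CC are, as deposited, a chi-squared statistic and p-value, but log2 fold and −log10 P for K562 replicate 3. All were made per replicate, without pooling. Whole reads per peak were recovered from these values. Whole CC reads were found for between 58.2% and 100% of the peaks of a library, and the nearest whole number was taken otherwise. On data simulated from K562 replicate 3, the direction was the same for at least 96.4% of peaks. This check does not cover the other tubes, whose CC reads had to be recovered from the statistic.

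Genes came from GENCODE release 44 (the authors used 35). A peak counted for each gene it overlaps, and reads in touching peaks were counted in each. No merged peak held under 3 reads, so that a level of 0 means no listed peak. PUM2 libraries, with the fewest reads, were the least precise. Reads per gene were tested with limma 3.58.1 (voom, R 4.3.3) where a gene had at least 10 reads in at least 3 libraries (2 tubes for summed reads), with Benjamini-Hochberg adjustment over all genes. On simulated DDX3 libraries, 77.0% of genes changed 4-fold were found in K562 and 47.7% in HEK293 cells, and 5.05% for a difference in preference between lines. For summed reads, 100% were found. The simulated libraries of a tube varied independently, without the spread between tubes that summed reads hold, so that this share does not give the real sensitivity.

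Named genes were the 3 of highest fold per RBP, the 2 with the most reads per complex, the 2 of lowest p per RBP and the 5 of largest difference on each side between lines, the 4 of complex II, those with the RBFOX2 or PUM2 motif, and those without a peak. ATP5PO, COX7B, COX8A, NDUFA6, NDUFB2, NDUFC2, NDUFS8, UQCR11 and UQCRHL were added after their values were seen. Values of 1 gene that the counts include are not reported here. The members and gene lists were chosen with earlier results of these data known. Alternatives covered limits, background, overlap rules, library size, filters, the tube as a block and each replicate left out.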

Additional observations from a re-analysis of the deposited data

Results flagged for a closer look

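For 17 pairs of an RBP and a respiratory chain gene, the difference of the RBP from the other 9 of the tube itself differed between the lines (limma, 50 libraries, adjusted p below 0.05; for each RBP the 2 genes of lowest p). Values are log2 differences, HEK293 minus K562, with the reads of the RBP summed over the tubes. Several rest on genes with no read of the RBP in one line, where the value depends on the library size.

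SDHAF2, an assembly factor of complex II, was higher for RBFOX2 in HEK293 cells by 3.67 (3 reads in K562 and 88 in HEK293 cells), and NDUFAF5, an assembly factor of complex I, by 3.59 (0 and 72). NDUFB6, an accessory subunit of complex I, was higher for PRPF8 by 3.78 (0 and 61) and for IGF2BP2 by 2.90 (0 and 39). NDUFAF6 was higher for FAM120A by 3.05 (13 and 173).

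ATP5MF was higher for EIF3G by 3.39 (3 and 29), and its readthrough gene ATP5MF-PTCD1, which shares these reads, by 3.06. UQCRQ and UQCRC2 were higher for ZC3H11A by 3.17 (4 and 40) and 2.91 (7 and 23). NDUFA10 was higher for SF3B4 by 3.38 (0 and 29), and SDHAF3 for DDX3 by 2.83 (0 and 8), the only DDX3 gene of the set that differed.

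On the other side, ATP5MG differed for SF3B4 by -4.36 (27 and 0), NDUFAF4 for LIN28B by -3.97 (13 and 0), NDUFB7 for FAM120A by -3.71 (25 and 6) and COX6C for LIN28B by -3.21 (12 and 0). NDUFB1 and NDUFAF6 differed for PUM2 by -3.45 and -3.35 with no PUM2 read in either line.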

How the results depend on the processing

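Counts of called pairs depended on the limits. With P below 1e-05 and a fold above 16, the 76 pairs over the CC became 13 in K562 cells and 17 in HEK293 cells, with any fold above 1 they became 131 and 195, and with the external background 258 and 185. A call in at least 2 of 3 K562 replicates gave 139 pairs. Leaving out a replicate gave between 86 and 105 pairs in K562 cells and 121 and 165 in HEK293 cells. For the 152 and 110 pairs above the other 9 RBPs, leaving out a replicate gave between 98 and 122 in K562 cells and 31 and 58 in HEK293 cells, where 1 tube is left and is taken to vary like those of K562, and limma-trend gave 69 in HEK293 cells. The 59 pairs that differed between lines became 24 with limma-trend, 37 where the RBP had to hold a peak in every replicate of a line (an alternative chosen after seeing the data), and between 29 and 62 when a replicate was left out. The 23 genes whose summed reads differed stayed between 16 and 32 under all settings.

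The tube was the replicate block of the RBP comparisons, and without it 148, 114 and 46 pairs passed. K562 and HEK293 tubes share only a number (r = -0.147 between the deviations of same-numbered tubes). With the number as a replicate block the summed reads gave 24 genes, and 32 with crossed numbers, which was chosen after seeing the data, as were the settings that leave out snoRNA sites, under which the counts over the CC stayed at 76.

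No named gene changed sign under any setting in its difference in preference between lines or in its summed reads. Over the CC a value is a number of replicates called and has no sign. Preferences of single genes within a line were not compared across settings. Over the CC, 23 of 176 values of named genes lost the call, 39 of 170 for a difference in preference between lines, and 5 of 100 for the summed reads. The cause was not tested. Depth limits these results, as PUM2 and EIF3G calls on genes with few or no reads cannot be told from background. On simulated DDX3 libraries 5.05% of 4-fold differences in preference between lines were found. The simulation left out the spread between tubes and so does not give the sensitivity for summed reads.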
